A study of Mus musculus with 6 samples.

Results

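Markers of macrophages and of antigen presentation were examined in RNA-seq of bulk tissue, the interscapular brown adipose depot of newborn mice. The 34 genes were chosen by symbol, as pan-macrophage markers (23 genes), markers of resident macrophages (6 genes), the MHC class II genes H2-Aa and H2-Ab1 with Cd74 and Cd83 (4 genes), and the macrophage growth factor Csf1. All 34 are among the 19241 genes of the deposited table. The WT group held 3 libraries from newborn mice labelled Fstl1-floxed, and the KO group held 3 libraries from newborn mice labelled Myf5-Fstl1 KO, in which Fstl1, the gene of a secreted glycoprotein, is deleted in the Myf5 lineage. Skeletal muscle and many brown adipocytes descend from that lineage, and macrophages arise from haematopoietic cells outside it. The labels do not name a Cre allele, the sex of the mice, or whether the 3 libraries of a group came from separate animals, so p-values measure the spread between these libraries, which may be technical.

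Macrophages of a tissue depend on signals through the CSF1 receptor, take up dying cells, lipid and debris, and carry scavenger and Fc receptors. In adipose tissue, resident macrophages that carry CD163, CD206 (Mrc1) and LYVE1 lie along vessels and nerves. MHC class II molecules present peptides from engulfed material to CD4 T cells; their genes depend on the coactivator CIITA, and their surface level is low on macrophages of the newborn. RNA of a whole depot mixes all of its cells, so in these bulk libraries more macrophages and more RNA per macrophage cannot be told apart.

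The values are FPKM, that is, mapped fragments corrected for transcript length and library size. The main fit compared them between libraries without further scaling, although their sums differed. The sum per library lay between 486449 FPKM in WT replicate 1 and 556968 FPKM in WT replicate 3. The steps between low values gave an estimate of 1.38e+07 to 1.5e+07 reads per library. Fstl1 was at 54.4 to 130.04 FPKM in WT and at 7.93 to 13.1 FPKM in KO, so KO held 12.4% of the WT mean (limma, adjusted p 0.00979). Brown adipocyte markers were high in every library, with Fabp4 at 14000 FPKM or more, and of 8 such genes 3 lay higher and 5 lower in KO. Plin1, a lipid droplet protein, was called lower, at 37.9% of the WT mean (limma, adjusted p 0.0267), a call lost with no minimum FPKM and without KO replicate 2, KO replicate 3, WT replicate 2 or WT replicate 3 (limma, adjusted p 0.061 to 0.108). Ucp1, the uncoupling protein of brown fat, and Prdm16, a transcription factor of brown adipocytes, were at 48.9% and 46.0% of the WT mean with every KO library below every WT library (limma, adjusted p 0.0804 and 0.0519); Prdm16 passed without KO replicate 1 and with either other scaling (limma, adjusted p 0.0456, 0.0475 and 0.0461). Xist was at 44.8 to 85.5 FPKM in WT and at 0.05 to 0.92 FPKM in KO, while the Y-linked gene Ddx3y was at 0 to 0.23 FPKM in WT and at 59.5 to 60.8 FPKM in KO. Genotype and sex therefore cannot be told apart in any comparison of these groups. KO replicate 1 stood apart in skeletal muscle markers, whose summed level over 8 genes was 313 FPKM there and 1282 to 1863 FPKM in the other libraries. WT replicate 3 stood apart in erythroid markers, with 11789 FPKM over 6 genes against 2556 to 4173 FPKM elsewhere.

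Most of the markers lay higher in KO than in WT, by modest amounts, and 0 of them passed the test. Of the 34 genes, 33 had a mean of at least 0.5 FPKM and were tested; Timd4, a phosphatidylserine receptor of resident macrophages, lay at 0.24 to 0.6 FPKM and was not. A fold change here is a difference of log2(FPKM + 1), KO minus WT, and at low FPKM it is smaller than the true ratio. It was above 0 for 31 of the 33 genes, against 51.6% of all genes tested, and its median was 0.34 against 0.01 for all 13331 genes tested. At an adjusted p under 0.05 in limma 0 members were called, higher or lower; among all genes tested 2.21% were called. At an unadjusted p under 0.05 there were 10 members higher and 0 lower in KO, and the shares over all genes tested were 10.6% and 8.6%. All 3 KO libraries lay above all 3 WT libraries for 10 members (13.6% of all genes tested did so), and below them for 0 members (11.4%). The lowest adjusted p, 0.0831, was that of Cd163.

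**Figure D1:**
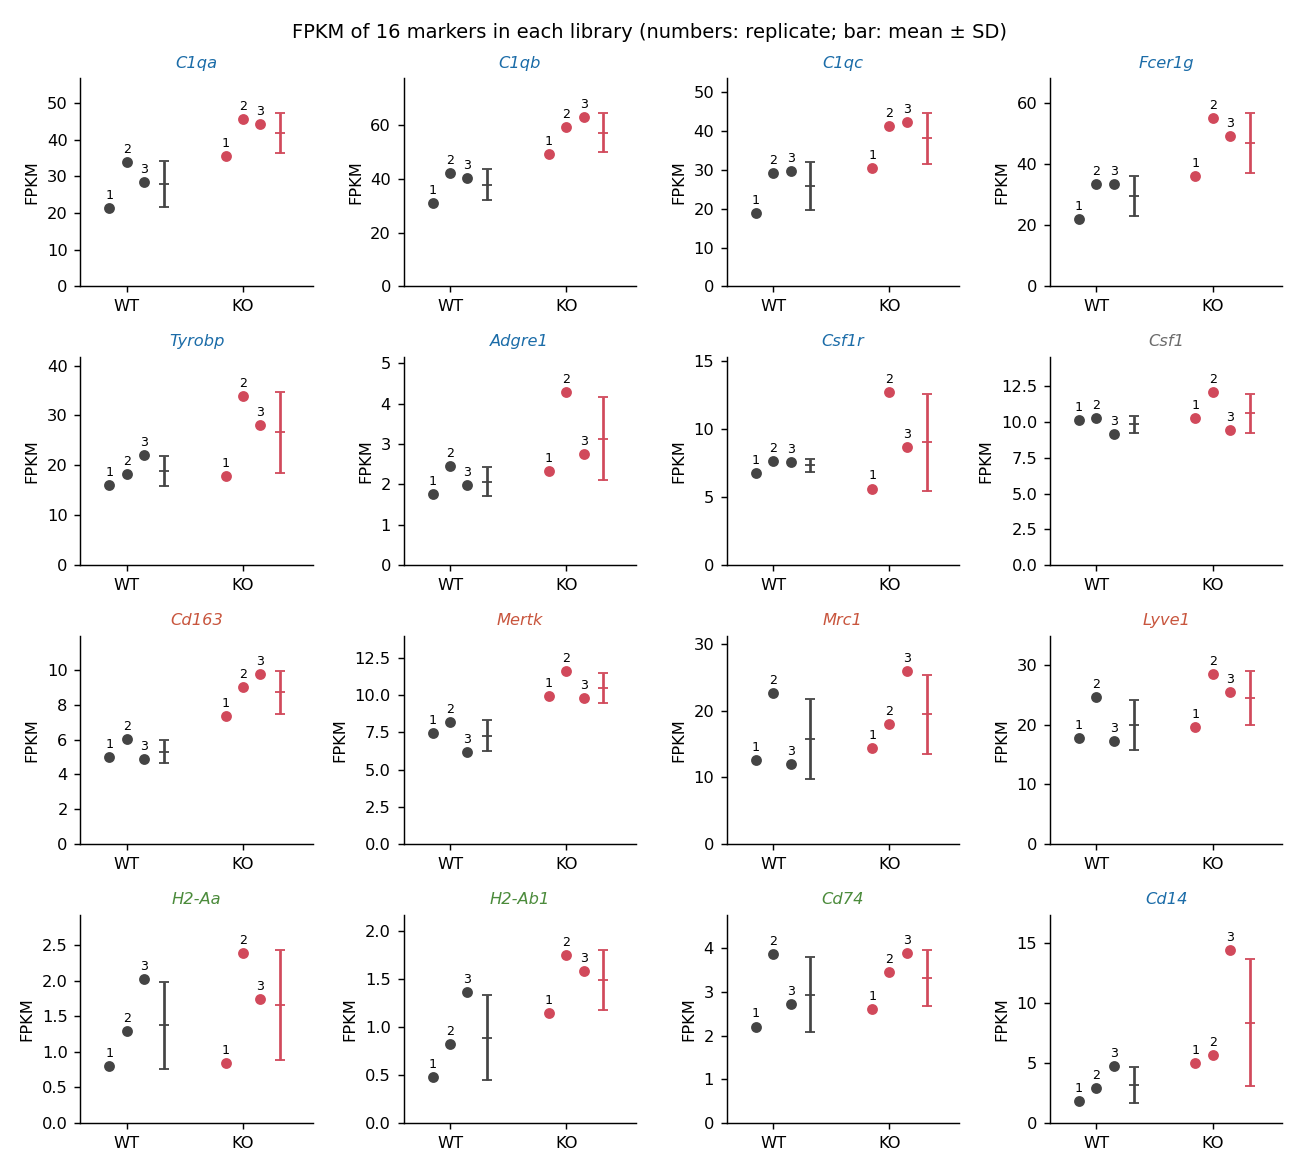
FPKM (vertical axes, each starting at 0) of 16 of the markers in the WT (grey) and KO (red) libraries, with the replicate number above each point and the mean ± SD (n = 3) to the right; titles are blue for pan-macrophage, red for resident macrophage and green for MHC class II markers, and grey for Csf1. The C1q chains, Fcer1g, Cd163, Mertk and Cd14 do not overlap between the groups, while Csf1, Csf1r and the MHC class II genes do.

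Within each group a single library stood low across many members. WT replicate 1 was the lowest of the WT libraries for 24 of the 33 members tested, where 40.3% of all genes tested had their lowest WT value there. By subgroup this held for 19 of 23 pan-macrophage, 4 of 4 class II and only 1 of 5 resident members. The resident markers Cd163, Mertk, Mrc1 and Lyve1 were lowest in WT replicate 3. KO replicate 1 was the lowest of the KO libraries for 26 of the 33, against 27.1% of all genes. The summed level of the 34 genes was 276, 387 and 359 FPKM in WT replicates 1, 2 and 3 and 380, 528 and 498 FPKM in KO replicates 1, 2 and 3. KO replicate 1 thus lay below WT replicate 2, and KO replicates 2 and 3 lay above every WT library. Without WT replicate 1, 29 of the 33 members kept a fold change above 0, and without KO replicate 2, 26 did.

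The growth factor axis overlapped between the groups. Csf1, the ligand that sustains macrophages, was at 10.1, 10.3 and 9.14 FPKM in replicates 1, 2 and 3 of WT, against 10.3, 12.1 and 9.42 FPKM in KO replicates 1, 2 and 3. The groups overlapped, and the log2 fold change of 0.09 had a 95% interval of −0.24 to 0.43 (limma, adjusted p 0.775). Csf1r, its receptor, was at 6.78, 7.63 and 7.56 FPKM in WT, against 5.63, 12.7 and 8.71 FPKM in KO. KO replicate 1 was the lowest and KO replicate 2 the highest of all 6 libraries, a log2 fold change of 0.21 was estimated (limma, adjusted p 0.691), and without KO replicate 2 it was −0.051. The 3 KO libraries spread more widely in Csf1r, with an SD of 3.56 FPKM, than the 3 WT libraries, with an SD of 0.472 FPKM. Il34, the other ligand of this receptor, was at 2.42 ± 0.74 FPKM in WT and 2.15 ± 0.43 FPKM in KO (SD, n = 3 each; limma, adjusted p 0.812). Spi1, which encodes the myeloid transcription factor PU.1, had a log2 fold change of 0.35 (limma, adjusted p 0.342).

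Of Ptprc and 6 general macrophage markers (Adgre1, Lyz2, Cd68, Aif1, Mpeg1 and Laptm5), Ptprc and Mpeg1 did not overlap between the groups. In both, every KO library lay above every WT library, as it did in 13.6% of all genes tested. Ptprc, the leukocyte phosphatase CD45, was at 2.21 ± 0.245 FPKM in WT and 3.28 ± 0.552 FPKM in KO (SD, n = 3 each), with every KO library above every WT library (limma, adjusted p 0.2). Adgre1, the F4/80 antigen used to define mouse macrophages, was at 1.76, 2.46 and 1.98 FPKM in WT, against 2.34, 4.29 and 2.76 FPKM in KO. KO replicate 1 lay within the WT range, and the log2 fold change was 0.41 with a 95% interval of −0.04 to 0.86 (limma, adjusted p 0.306); without KO replicate 2 it was 0.22. Lyz2, the macrophage lysozyme, was the second highest pan-macrophage marker, at 31.9, 48.9 and 41.7 FPKM in WT and 38.8, 63.2 and 39.1 FPKM in KO. Here KO replicates 1 and 3 lay inside the WT range, and without KO replicate 2 the log2 fold change of 0.18 became −0.045. Lyz2 has a close paralogue, Lyz1, and how the authors' counting shared reads between such genes is not given in the sources used here. Cd68, a lysosomal glycoprotein, Aif1, an actin-binding protein known as IBA1, Mpeg1, a pore-forming protein, and Laptm5, a lysosomal membrane protein, had log2 fold changes of 0.22, 0.11 (−0.082 without KO replicate 2), 0.20 and 0.34, with adjusted p of 0.303 to 0.807 in limma; of these Mpeg1 did not overlap, at 2.63 to 3.17 FPKM in WT and 3.24 to 4.09 FPKM in KO.

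The 3 chains of complement C1q lay higher in KO by nearly the same factor, below the threshold of the test. C1q opens the classical complement pathway, binds dying cells, and is made in most tissues chiefly by macrophages. C1qa was at 21.4, 34.0 and 28.6 FPKM in replicates 1, 2 and 3 of WT, against 35.5, 45.6 and 44.2 FPKM in KO replicates 1, 2 and 3. C1qb was at 31.1, 42.0 and 40.4 FPKM in WT, against 49.1, 59.3 and 63.1 FPKM in KO, and C1qc at 18.8, 29.1 and 29.6 FPKM in WT, against 30.6, 41.3 and 42.4 FPKM in KO. In each of the 3 genes WT replicate 1 was lowest and all 3 KO libraries lay above the highest WT library, narrowly so in C1qa and C1qc. The log2 fold changes were 0.58, 0.59 and 0.56 with standard errors of 0.19, 0.17 and 0.21, and none passed (limma, adjusted p 0.148, 0.106 and 0.199); without WT replicate 1 that of C1qc was 0.35. KO held 1.49, 1.51 and 1.48 times the WT mean of C1qa, C1qb and C1qc. The chains kept their proportions in every library: the ratio of C1qa to C1qb ran from 0.688 to 0.808, and that of C1qc to C1qb from 0.603 to 0.734. The ratio of C1qa to C1qb was 0.734 ± 0.0642 in WT and 0.731 ± 0.0347 in KO (SD, n = 3 each).

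C1qa, C1qc and C1qb lie side by side on chromosome 4 of GRCm38 within 18719 bases, from position 136880126 to 136898844, on the minus strand. The bases before the starts of C1qb and C1qc are shown because these neighbours gave nearly the same fold change. Those of Cd163 and H2-Aa are shown as examples from the resident and the MHC class II markers. They come from RefSeq on GRCm38.p6, read 5′ to 3′ along the strand of the gene up to the first annotated base, at chr4:136886201-136886450 (minus strand) for C1qb, chr4:136892937-136893164 (minus strand) for C1qc, chr6:124304401-124304635 (plus strand) for Cd163 and chr17:34287824-34288073 (minus strand) for H2-Aa. Capitals mark 2 overlapping cores bound by PU.1 and other ETS factors, GAGGAA and AGGAAG, and the Y box core CCAAT bound by NF-Y, each searched on both strands.
C1qb: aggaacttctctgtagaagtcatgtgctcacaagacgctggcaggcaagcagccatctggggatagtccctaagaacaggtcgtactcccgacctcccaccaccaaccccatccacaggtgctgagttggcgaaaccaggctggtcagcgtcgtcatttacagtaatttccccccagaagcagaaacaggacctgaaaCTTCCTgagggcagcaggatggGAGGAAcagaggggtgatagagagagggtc
C1qc: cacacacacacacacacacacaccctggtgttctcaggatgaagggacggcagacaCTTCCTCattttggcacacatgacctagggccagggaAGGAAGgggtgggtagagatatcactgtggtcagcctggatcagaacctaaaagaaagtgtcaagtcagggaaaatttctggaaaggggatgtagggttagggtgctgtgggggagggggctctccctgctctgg
Cd163: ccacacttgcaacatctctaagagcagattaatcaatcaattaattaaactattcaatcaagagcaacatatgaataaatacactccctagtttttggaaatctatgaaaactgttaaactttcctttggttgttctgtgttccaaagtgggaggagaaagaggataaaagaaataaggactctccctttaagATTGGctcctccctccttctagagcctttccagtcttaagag
H2-Aa: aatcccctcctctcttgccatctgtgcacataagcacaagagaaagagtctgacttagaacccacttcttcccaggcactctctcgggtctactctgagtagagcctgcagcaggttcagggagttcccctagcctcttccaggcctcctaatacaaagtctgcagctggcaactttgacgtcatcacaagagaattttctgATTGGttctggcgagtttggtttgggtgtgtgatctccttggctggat
C1qb held 1 match to each ETS core and C1qc held 1 to GAGGAA and 2 to AGGAAG, of which 1 overlaps the GAGGAA match; neither held a Y box core. Cd163 and H2-Aa held 1 Y box core each, on the other strand as ATTGG, and neither ETS core. Of the other resident markers with a window, Mrc1 and Folr2 held an ETS core and Mertk and Timd4 did not. In the 250 bases before the start, an ETS core was present in 16 of 25 windows of 22 member genes (64%) and in 39.2% of all 32851 windows of the RefSeq table, and a Y box core in 10 of the 25 (40%) and in 33.8% of all. A match is a run of letters and not a measured binding site.

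Receptors and adaptors of phagocytes gave a mixed picture. Fcer1g and Tyrobp encode short transmembrane adaptors that pass on signals from Fc receptors, C-type lectins and TREM2. Fcer1g was at 22.1, 33.5 and 33.4 FPKM in WT, against 35.9, 55.2 and 49.2 FPKM in KO, so that every KO library lay above every WT library, with a log2 fold change of 0.64 (95% interval 0.15 to 1.13; limma, adjusted p 0.155). Tyrobp was at 16.1, 18.3 and 22.0 FPKM in WT, against 17.9, 33.9 and 28.0 FPKM in KO; KO replicate 1 lay below WT replicates 2 and 3, with a log2 fold change of 0.45 (limma, adjusted p 0.332), which became 0.26 when KO replicate 2 was left out and 0.70 when KO replicate 1 was. Fcer1g is also expressed by mast cells. Their 7 markers summed to 197 to 334 FPKM in WT and 198 to 292 FPKM in KO. The median log2 fold change over the 6 mast cell markers tested was 0.02. The part of mast cells in the values of Fcer1g was not tested. Of the IgG receptors, Fcgr3 (CD16) had a log2 fold change of 0.51 (limma, adjusted p 0.235) and Fcgr1 (CD64), the one most restricted to macrophages, of 0.03 with a 95% interval of −0.38 to 0.44, and of −0.11 without KO replicate 3. Fcgr3 has a close paralogue, Fcgr2b, with the same limit on shared reads as Lyz2. Clec4n, the lectin Dectin-2, and Msr1, a scavenger receptor for modified lipoproteins, had 0.46 and 0.41 (limma, adjusted p 0.347 and 0.283). Cd14, the lipopolysaccharide co-receptor, chosen for a fuller account after its values were seen, had the largest fold change of the 33 genes. It was at 1.82, 2.95 and 4.74 FPKM in WT, against 4.97, 5.67 and 14.5 FPKM in KO replicates 1, 2 and 3, so KO replicate 1 was barely above WT replicate 3 and KO replicate 3 was far above all others. Its log2 fold change, 1.09, had a standard error of 0.38 (adjusted p 0.167 in limma); leaving out KO replicate 3 gave 0.66.

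Cx3cr1 and Trem2 were the only members below 0. Cx3cr1, the fractalkine receptor, was at 0.57, 0.62 and 0.68 FPKM in WT, against 0.31, 0.92 and 0.3 FPKM in KO. KO replicates 1 and 3 lay below the WT range and KO replicate 2 above it, and the log2 fold change of −0.13 had a 95% interval of −0.54 to 0.28 (limma, adjusted p 0.75). Trem2, a receptor for lipids and apoptotic cells, had a log2 fold change of −0.02, whose sign turned without KO replicate 1 (0.053), WT replicate 2 (0.062) or WT replicate 3 (0.076); by the depth estimate its values rested on about 6.77 to 16.6 reads per library. Of the phagocyte oxidase, Ncf1 (the cytosolic subunit p47phox) was at 3.91 ± 0.454 FPKM in WT and 5.21 ± 0.469 FPKM in KO (SD, n = 3 each) without overlap (limma, adjusted p 0.252). Cybb, its catalytic subunit, had a log2 fold change of 0.27 (limma, adjusted p 0.424). Cybb lies on the X chromosome.

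Resident macrophage markers lay higher in KO in all 5 genes tested, with a median log2 fold change of 0.42. Cd163, the scavenger receptor for haemoglobin bound to haptoglobin, was at 5, 6.06 and 4.89 FPKM in replicates 1, 2 and 3 of WT, against 7.36, 9.01 and 9.79 FPKM in KO replicates 1, 2 and 3. The groups were well apart for this gene, and KO held 1.64 times the WT mean, with a log2 fold change of 0.62 (95% interval 0.26 to 0.98; limma, adjusted p 0.0831). Mertk, a receptor tyrosine kinase for the uptake of dying cells, was at 7.46, 8.23 and 6.18 FPKM in WT, against 9.97, 11.6 and 9.80 FPKM in KO. It too did not overlap, and it had a log2 fold change of 0.47 (95% interval 0.12 to 0.82; limma, adjusted p 0.146). Folr2, the folate receptor of resident macrophages, was at 4.13, 6.32 and 8.01 FPKM in WT, against 7.22, 8.47 and 9.35 FPKM in KO, with KO replicate 1 below WT replicate 3 (log2 fold change 0.42, and 0.20 without WT replicate 1; limma, adjusted p 0.332).

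The highest resident markers were the least separated. Mrc1, the mannose receptor CD206, was at 12.7, 22.7 and 11.97 FPKM in WT, against 14.4, 17.9 and 26.0 FPKM in KO. WT replicate 2 exceeded KO replicates 1 and 2, and the log2 fold change was 0.30 with a 95% interval of −0.32 to 0.92 (limma, adjusted p 0.589); it ran from 0.082 without KO replicate 3 to 0.58 without WT replicate 2. Lyve1, a hyaluronan receptor shared with lymphatic endothelium, was at 17.7, 24.7 and 17.2 FPKM in WT, against 19.6, 28.4 and 25.5 FPKM in KO, again with WT replicate 2 inside the KO range (log2 fold change 0.29; limma, adjusted p 0.448). Of lymphatic endothelium, 6 markers summed to 11.2 to 12.1 FPKM in WT and 16.6 to 21.6 FPKM in KO, a difference carried mainly by Pdpn and Mmrn1. Of the 4 tested 3 were higher and 1 lower, and 1, the mucin-type glycoprotein Pdpn, passed (1.21% of all genes tested were called higher), at 4.98 ± 0.525 FPKM in WT and 10.4 ± 1.29 FPKM in KO (SD, n = 3 each; log2 fold change 0.93; limma, adjusted p 0.0276). The call of Pdpn was lost without the filter and without KO replicate 1, KO replicate 2, WT replicate 2 or WT replicate 3 (limma, adjusted p 0.0736 to 0.0998). Mmrn1, a secreted multimerin, was at 1.45 ± 0.291 FPKM in WT and 2.84 ± 0.236 FPKM in KO (SD, n = 3 each; limma, adjusted p 0.0626). Flt4, the VEGF-C receptor, was at 105% and Reln, a matrix glycoprotein, at 79.8% of the WT mean. Prox1, which defines that cell type, was at 0.40 ± 0.0854 FPKM in WT and 0.403 ± 0.137 FPKM in KO (SD, n = 3 each) and was not tested, and the part of lymphatic cells in the values of Lyve1 was not tested. Without WT replicate 1 the median of the resident markers was 0.22.

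**Figure D2:**
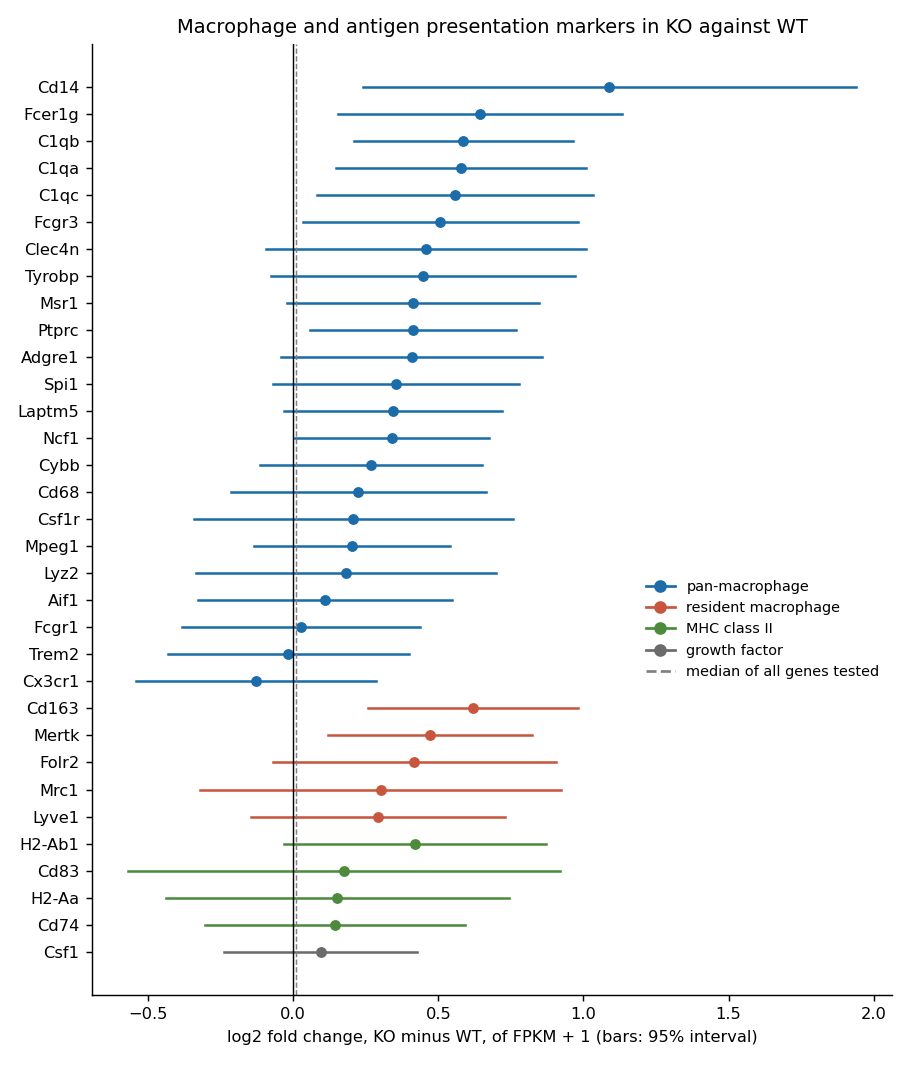
Log2 fold change of FPKM + 1, KO minus WT (horizontal axis), of the 33 markers tested, with 95% intervals from limma before any adjustment for multiple tests, coloured by subgroup; the dashed line is the median of all genes tested (0.01). All resident and MHC class II markers and 21 of 23 pan-macrophage markers have estimates above 0, and most intervals include 0.

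MHC class II genes were low in level. At an unadjusted p under 0.05 in limma there were 0 of the 4 in either direction, near the shares over all genes tested (10.6% higher and 8.6% lower). H2-Aa and H2-Ab1 encode the alpha and beta chains of the class II molecule I-A, at chr17:34282744-34287823 and chr17:34263227-34269418 of GRCm38. H2-Aa was at 0.80, 1.29 and 2.02 FPKM in replicates 1, 2 and 3 of WT, against 0.84, 2.39 and 1.74 FPKM in KO replicates 1, 2 and 3. The groups overlapped, and the log2 fold change of 0.15 (limma, adjusted p 0.802) became −0.046 without KO replicate 2 and −0.03 without WT replicate 1. H2-Ab1 was at 0.48, 0.82 and 1.36 FPKM in WT, against 1.14, 1.75 and 1.58 FPKM in KO, with only KO replicate 1 inside the WT range (log2 fold change 0.42, and 0.26 without WT replicate 1; limma, adjusted p 0.296). The ratio of H2-Aa to H2-Ab1 was 1.67, 1.57 and 1.49 in WT and 0.737, 1.37 and 1.10 in KO, so every KO library had the lower ratio. By the depth estimate H2-Ab1 rested on about 8.03 to 30.3 reads and H2-Aa on about 12.4 to 38.4 reads per library, and the ratio was not tested.

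Cd74, the invariant chain that guides class II molecules through the cell, was the highest of the 4, at 2.21, 3.88 and 2.73 FPKM in WT and 2.62, 3.45 and 3.90 FPKM in KO. These ranges almost coincide, and the log2 fold change was 0.14 (95% interval −0.30 to 0.59; limma, adjusted p 0.74). Cd83, which stabilises class II at the surface and is raised on activation, ran from 0.83 to 1.36 FPKM in WT and from 0.42 to 3.02 FPKM in KO. KO replicate 3 had the lowest and KO replicate 2 the highest value of all 6 libraries, and without KO replicate 2 its log2 fold change of 0.18 became −0.22. Of other cells that carry class II, dendritic cells had 9 markers, which summed to 11.3 to 12.3 FPKM in WT and 10.3 to 11.01 FPKM in KO, with Flt3 at 0 to 0.11 and Itgax at 0.05 to 0.16 FPKM. Most of that sum was Zbtb46, which endothelium also expresses. Clec9a, a receptor of cross-presenting dendritic cells, went the other way, at 1.68 ± 0.721 FPKM in WT and 2.98 ± 0.525 FPKM in KO (SD, n = 3 each; log2 fold change 0.59; limma, adjusted p 0.185); of the 3 tested 2 were higher and 1 lower. The part of these cells in the class II values was not tested.

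The 3 subgroups had medians above 0. The median log2 fold change was 0.35 over 23 pan-macrophage members, 0.42 over 5 resident members and 0.16 over 4 MHC class II members, beside 0.01 over all genes tested. Groups did not overlap in 8 of 23 pan-macrophage, 2 of 5 resident and 0 of 4 class II members, each time with KO higher, where 13.6% of all genes tested did so; with so few class II members, 0 is near that share. Per library, a subgroup level was taken as the mean deviation of log2(FPKM + 1) from each gene's mean over the 6 libraries. For the pan-macrophage members it was −0.39, −0.05 and −0.10 in WT replicates 1, 2 and 3 and −0.06, 0.33 and 0.27 in KO replicates 1, 2 and 3. KO replicate 1 thus stood between the WT libraries, and KO replicates 2 and 3 above all of them. For the resident members it was −0.38, 0.04 and −0.29 in WT and −0.01, 0.28 and 0.36 in KO, with only WT replicate 2 above a KO library. For the class II members it was −0.39, −0.05 and 0.11 in WT and −0.14, 0.46 and 0.02 in KO, so WT replicate 3 exceeded KO replicates 1 and 3. The median of the class II members was 0.04 without KO replicate 2 and 0.05 without WT replicate 1. Whether the subgroups differ from each other was not tested, since the members were chosen with earlier results known.

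**Figure D3:**
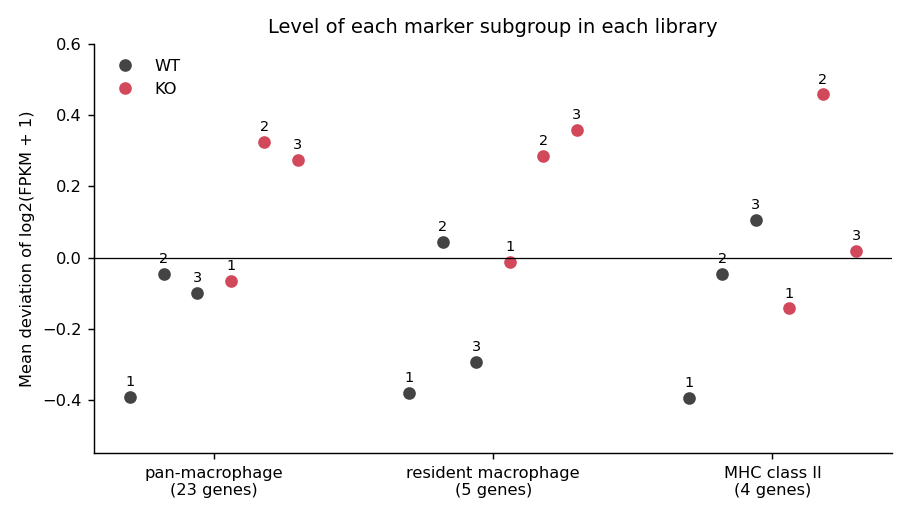
Mean deviation of log2(FPKM + 1) from each gene's mean over the 6 libraries (vertical axis) for the 3 marker subgroups; each point is 1 library, WT in grey and KO in red, with its replicate number. KO replicates 2 and 3 are the highest in the pan-macrophage and resident subgroups, and WT replicate 1 is the lowest in all 3.

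Other genes of both antigen presentation pathways were listed apart from the members. Of 19 further class II genes 12 were tested, 6 higher and 6 lower, with a median log2 fold change of −0.02 and 0 called in either direction at an adjusted p of 0.05 in limma. Groups did not overlap in 3 genes that lay lower in KO (H2-Eb1, H2-DMa and Nfyc) and in 2 that lay higher (Rfx5, a promoter-binding factor of class II genes, and Cd86, a costimulatory ligand), among all genes tested 11.4% and 13.6%. H2-Eb1, a chain of the class II molecule I-E, was at 1.36, 1.73 and 2.13 FPKM in WT, against 0.63, 1.03 and 1.08 FPKM in KO. Its groups did not overlap (log2 fold change −0.52; limma, adjusted p 0.151). H2-DMa, a peptide exchange factor of class II loading, was at 1.07 ± 0.20 FPKM in WT and 0.757 ± 0.0757 FPKM in KO (SD, n = 3 each), also without overlap (limma, adjusted p 0.424). Nfyc, a subunit of the Y box factor NF-Y, had the smallest p of this list, with 54.7 ± 5.79 FPKM in WT and 36.8 ± 2.46 FPKM in KO (limma, adjusted p 0.0775, and 0.0483 without WT replicate 1). Ciita, the class II coactivator, lay at 0 to 0.07 FPKM in every library.

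Class I molecules present peptides from inside nearly every cell. The median level of the genes listed for class I presentation was 11.6 FPKM. It was 1.41 FPKM over the class II members and 1.33 FPKM over the further class II genes. The ranges overlapped, with Nlrc5 and H2-M3 of class I at 0.612 and 1.09 FPKM and Lgmn and Nfyc of class II at 42.2 and 45.7 FPKM. Of the 19 class I genes, all tested, 13 were higher and 6 lower, with a median log2 fold change of 0.21 and 0 called in limma. At an unadjusted p under 0.05 in limma there were 6 higher and 1 lower, where 10.6% and 8.6% of all genes tested were. B2m, the light chain of class I molecules, was at 208, 269 and 276 FPKM in WT, against 347, 372 and 354 FPKM in KO, without overlap (log2 fold change 0.52; limma, adjusted p 0.108). H2-K1, a class I heavy chain, was at 21.0, 33.0 and 33.5 FPKM in WT, against 44.3, 47.3 and 43.8 FPKM in KO (log2 fold change 0.64; limma, adjusted p 0.115). In both genes the KO libraries were close together and WT replicate 1 was low.

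**Figure D4:**
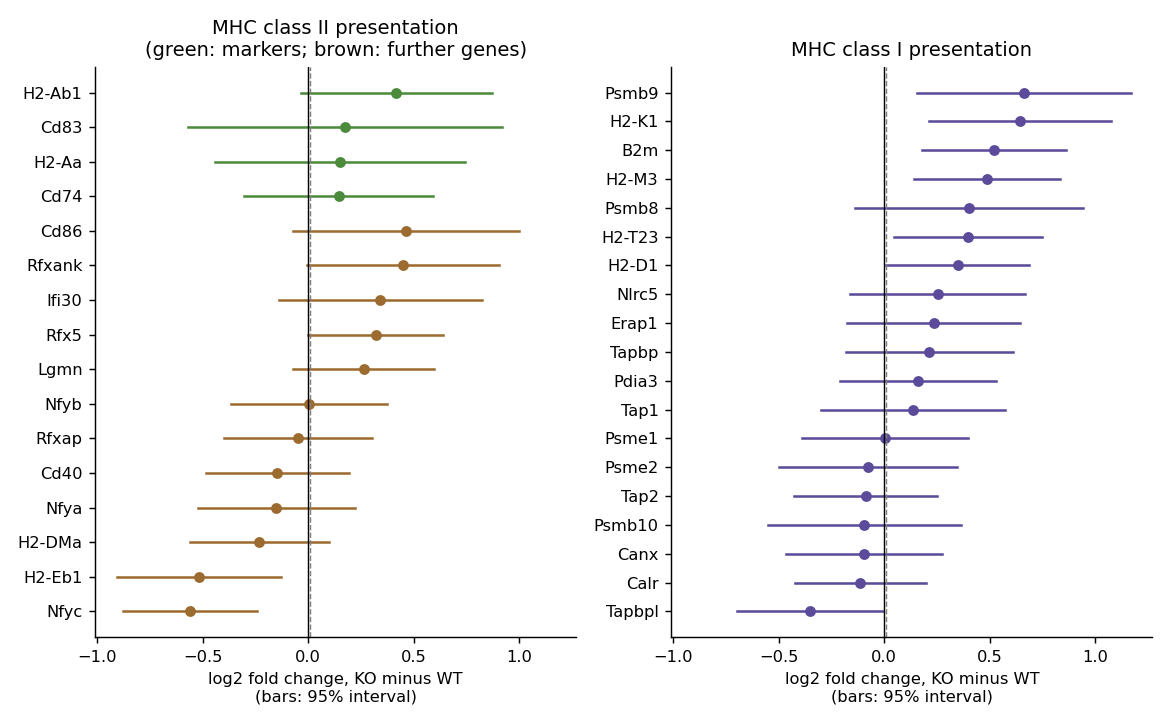
Log2 fold change of FPKM + 1, KO minus WT (horizontal axes), with 95% intervals from limma before any adjustment, for class II genes (left; green for the 4 members, brown for 12 further genes) and 19 class I genes (right); the dashed line is the median of all genes tested (0.01). H2-Eb1 and Nfyc lie below 0 with their intervals, and B2m and H2-K1 lie above 0 with theirs. The 4 members have estimates above 0 and intervals that include 0.

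Further macrophage genes, listed apart from the members, included 3 that passed the test. Of 32 genes 29 were tested, 27 higher and 2 lower in KO, with a median log2 fold change of 0.27; 3 were called higher and 0 lower, where 1.21% and 1.01% of all genes tested were called. Cd33, a sialic acid receptor of myeloid cells, rose from 1.48, 2.02 and 1.95 FPKM in WT to 4.10, 4.44 and 4.51 FPKM in KO. Its log2 fold change was 0.93 (limma, adjusted p 0.0244). Maf, a transcription factor of resident macrophages that other cells also express, rose from 9.13 ± 1.94 to 18.1 ± 1.69 FPKM (SD, n = 3 each; log2 fold change 0.93; limma, adjusted p 0.0391). Clec10a, a galactose-binding lectin of macrophages and dendritic cells, rose from 1.15 ± 0.423 to 3.01 ± 0.465 FPKM (SD, n = 3 each; log2 fold change 0.91; limma, adjusted p 0.0427). All 3 KO libraries lay above all 3 WT libraries in each of these genes. Their calls were not stable: with no minimum FPKM their adjusted p in limma was 0.0802, 0.0924 and 0.11, and leaving out any single library ended the calls of Maf and Clec10a, as did leaving out any library except WT replicate 1 for Cd33 (adjusted p of 0.0557 to 0.0902 for Cd33, 0.051 to 0.113 for Maf and 0.0681 to 0.139 for Clec10a). Monocyte and neutrophil markers lay partly higher as well: over 5 monocyte genes the sum was 24.5 to 39.1 FPKM in WT and 35.2 to 50.3 FPKM in KO, and over 10 neutrophil genes 151 to 235 FPKM in WT and 176 to 417 FPKM in KO. Of these lists 5 and 7 genes were tested, 4 and 5 of them higher, and 0 were called. Ly6g, which defines neutrophils, lay at 0 to 0.23 FPKM in WT and 0.23 to 0.66 FPKM in KO, and Mpo at 0.19 to 0.64 FPKM over all libraries. Other neutrophil genes of the list were far higher in level, with means over all libraries of 65.2 FPKM for S100a8 and 109 FPKM for S100a9. Retnlg and Cxcr2, with the smallest p of that list, were at 192% and 141% of the WT mean (limma, adjusted p 0.19 and 0.222). The 2 that lay lower were Camp and Ltf, at 77.1% and 93.6%. The part of these cells in genes that they share with macrophages, such as Cd14, Fcer1g, Tyrobp and Ncf1, was not tested.

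Factors that draw macrophages in or make them grow were listed together with receptors, and the genes of this list did not share a direction. The receptors tested (Csf2ra, Csf2rb, Csf3r, Ccr1 and Ccr2) all lay higher in KO. The ligands tested in this list all lay lower except Ccl5 and Cxcl10. Of 19 listed genes 18 were in the table and 14 were tested, 7 higher and 7 lower, with a median log2 fold change of −0.02; 0 were called higher and 1 lower, where 1.21% and 1.01% of all genes tested were called. The one called was Ccl3, a chemokine of activated macrophages. It fell from 1.18, 1.67 and 1.6 FPKM in WT to 0.57, 0.53 and 0.35 FPKM in KO (log2 fold change −0.74, limma, adjusted p 0.0459). Its level was low, with a mean of 0.983 FPKM over all libraries, and the reads behind it were not estimated. This call too was lost without the filter, and without any single library but WT replicate 1 (limma, adjusted p 0.0803 and 0.0939 to 0.183). Csf2rb, the shared beta chain of the GM-CSF, IL-3 and IL-5 receptors, was at 13.8 ± 0.376 FPKM in WT and 22.9 ± 3.66 FPKM in KO (SD, n = 3 each) without overlap, and missed the threshold (log2 fold change 0.68; limma, adjusted p 0.0565). Chemokines differed in sign among themselves, and most of those tested lay lower, as shown by genes named after their values were seen. The monocyte attractants Ccl2 and Ccl7 had log2 fold changes of −0.68 and −0.72 (limma, adjusted p 0.253 and 0.16). Ccl12, Cxcl12 and Cx3cl1 had log2 fold changes of −0.56, −0.50 and −0.37 (limma, adjusted p 0.429, 0.245 and 0.243). The interferon-induced ligand Cxcl10 and the lymphocyte and monocyte attractant Ccl5 had log2 fold changes of 0.99 and 0.58 (limma, adjusted p 0.0764 and 0.082). Cxcl10 was low, at 0.25 to 0.57 FPKM in WT and 0.81 to 2.37 FPKM in KO. So was Ccl5, at 0.13 to 0.25 FPKM in WT and 0.62 to 1 FPKM in KO. Ccr1, a receptor of Ccl3 and Ccl5, had a log2 fold change of 0.58 (limma, adjusted p 0.0653). Without KO replicate 2 Cxcl10 passed, at an adjusted p of 0.0314 in limma.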

How the data were processed

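RNA from the interscapular brown fat of newborn mice was measured in 6 libraries, 3 WT and 3 KO, grouped by their titles. The authors deposited FPKM per gene, rounded to 2 decimals, per the file headers; HISAT2 2.0.4, Bowtie2 2.2.5, DESeq2 and build mm10 are named in the submitters' processing notes without their roles. The counting tool, strand handling and filters are not given in the sources used here. FPKM are not counts, so log2(FPKM + 1) was fitted by limma 3.58.1 (R 4.3.3; eBayes with a trend) for every gene whose mean reached 0.5 FPKM, with no covariates. Benjamini-Hochberg adjustment ran over all 13331 genes tested, threshold 0.05, and 95% intervals came from the same fit. The fit was tested on simulated data.

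The members, their subgroups and the 16 further gene lists were chosen with earlier results of these data known, so no p was adjusted over a list alone and no gene set test was run. The result of 1 of these lists is not reported here. Per-library values are given for the 3 members with the smallest p and the 2 with the highest level in each subgroup, the member of opposite sign with the smallest p, Csf1, Csf1r, Adgre1 and the C1q, I-A and adaptor complexes; from each further list, the genes called and the 2 with the smallest p were eligible, and other genes named are given as values only. Depth was estimated from the steps between low FPKM of single-transcript genes (500 to 1300 nt, less 50 nt). Between 78.9% and 83.9% of these values came within 0.2 of whole reads, too few to recover counts, so no count test was run. Gene positions and sequences are from RefSeq on GRCm38.p6, the assembly called mm10. The groups share replicate numbers; the deviations of same-numbered libraries correlated at 0.068, 0.043 and 0.043, so the numbers were not taken as pairs. The alternatives were a pseudocount of 0.1, no filter, a filter at 5 FPKM, quantile normalization, median-of-ratios scaling, eBayes without the trend, the replicate number as a block, and leaving out each library.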

Additional observations from a re-analysis of the deposited data

How the results depend on the processing

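Over 13 alternatives the median log2 fold change stayed above 0 in each subgroup where members remained: it ran from 0.27 to 0.45 for the pan-macrophage, 0.22 to 0.55 for the resident and 0.04 to 0.33 for the class II members, which the filter at 5 FPKM removed. Both other scalings shifted the all-gene median by less than 0.1. No member was called in 12 of the alternatives. With the replicate block 1 was, Cd14 (log2 fold change 1.09; limma, adjusted p 0.0444), and 167 genes in all; the pairing of the numbers was not borne out. The count of members above 0, an outcome recomputed after seeing the data, was 19 of the 19 left by the filter at 5 FPKM and 26 (without KO replicate 2) to 32 of 33 when a library was left out. Without the filter 35 genes were called in all, and leaving out 1 library gave 31 (without WT replicate 3) to 370 (without WT replicate 1), against 295; the cause was not tested. Leaving out a library, log2 fold changes ran from −0.051 to 0.47 for Csf1r, from −0.046 to 0.40 for H2-Aa and from −0.045 to 0.32 for Lyz2; these turned without KO replicate 2, and H2-Aa also without WT replicate 1 (−0.03). For genes added to this comparison after seeing the data, they ran from −0.19 to 0.076 for Trem2 (0.0022 with the pseudocount of 0.1), −0.11 to 0.17 for Fcgr1 (−0.019 with quantile normalization), −0.082 to 0.27 for Aif1, −0.22 to 0.53 for Cd83, −0.11 to 0.23 for Cpa3 and −0.20 to 0.065 for Il34. With the replicate block Ccl3, Clec10a, Maf and Plin1 were not called (limma, adjusted p 0.0775, 0.0521, 0.0569 and 0.0523); Ccl3 was not with the pseudocount of 0.1 (0.0529), and Csf2rb was with the filter at 5 FPKM (0.043). Beyond Cd14 and these 4 the block changed no other call among the genes recomputed. Lower genes made up 45.4% of the calls, 25.8% without KO replicate 2 and 29.9% without KO replicate 3, but 55.4% without KO replicate 1, 53.5% without WT replicate 1 and 52.4% with median-of-ratios scaling. At this depth differences in Trem2, Cx3cr1 and the class II genes rest on few reads.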

Other observations

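Markers of other cell types of the depot gave these values. Mast cell genes stood high in both groups: Cpa3, a mast cell protease, was at 75.5 ± 19.5 FPKM in WT and 76.8 ± 17.8 FPKM in KO (SD, n = 3 each; limma, adjusted p 0.969), and 0 of the 6 genes tested were called. The smallest p of the list was that of Kit, the stem cell factor receptor, with a log2 fold change of 0.36 (limma, adjusted p 0.381). T and NK cell genes were near the limit of detection, with a sum over 9 genes of 1.94 to 2.63 FPKM in WT and 1.9 to 4.07 FPKM in KO. Zbtb46, a factor of dendritic cells that endothelium also expresses, was at 9.06 ± 0.747 FPKM in WT and 6.48 ± 1.15 FPKM in KO (SD, n = 3 each), without overlap (log2 fold change −0.44; limma, adjusted p 0.194).

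Of 8 blood endothelial genes 4 were higher and 4 lower, with a median log2 fold change of −0.02. Cldn5, a tight junction protein of endothelium, was at 81.0 ± 33.1 FPKM in WT and 46.0 ± 5.36 FPKM in KO (SD, n = 3 each; limma, adjusted p 0.237, and 0.0288 without WT replicate 1). All 6 fibroblast genes had estimates above 0, with a median log2 fold change of 0.26, and 0 were called; Dcn, a matrix proteoglycan, had 0.46 (limma, adjusted p 0.279). Their sum was highest in KO replicate 2, at 2375 FPKM, the library that was also highest in the summed macrophage markers. All 8 skeletal muscle genes had log2 fold changes below 0, with a median of −0.72, and 0 were called; all 8 were lowest in KO replicate 1. Of 6 erythroid genes 2 were higher and 4 lower, with a median of −0.51 and 0 called, and WT replicate 3 held the highest summed level.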
